A study of Mus musculus with 8 samples.

Results

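The expression of 10 immune genes, Slfn2, Slfn5, Slfn8, Slfn9, Trim14, Trim21, Trim25, Trim30a, Trim34a and Trim56, was followed among the 22520 genes of a liver endothelial cell (EC) table, which lists coding genes and some pseudogenes. They were taken by gene symbol alone and all 10 were found. The mRNA-seq data came from 4 LRP1 eKO and 4 WT libraries of liver microvascular ECs, which the sample labels call liver microvesicular cells, from C57BL/6 mice at postnatal day 14. LRP1 eKO mice were LRP1 f/f; Cdh5-CreER+/-, and their WT littermates were LRP1 f/f; Cdh5-CreER-/-, so that both genotypes carry the floxed Lrp1 alleles and the CreER transgene, driven by the endothelial Cdh5 promoter, is present in LRP1 eKO mice alone. The loss of Lrp1 and the presence of CreER therefore cannot be told apart in this design. Per the paper's methods, the cells were selected with PECAM-1 antibody beads. The labels do not say whether each library came from a separate mouse, and p-values measure the spread between these libraries.

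Schlafen (Slfn) proteins restrain the proliferation of immune cells and, in their long forms, carry a helicase-like domain. Tripartite motif (TRIM) proteins combine a B-box and a coiled coil, in most members with a RING domain that attaches ubiquitin to other proteins. Many genes of both families are induced by interferon, whose receptors activate the transcription factor complex ISGF3, which includes Stat2 and Irf9 and binds the interferon-stimulated response element (ISRE). Among the TRIM proteins studied here, Trim25 acts with the RNA sensor RIG-I, Trim14 with the adaptor MAVS, Trim21 as a cytosolic receptor for antibody, Trim30a as a brake on NF-kB signaling, and Trim56 in the response to cytosolic nucleic acid.

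The values are quantile-normalized signals, which give each library nearly the same distribution, and the unit before that step is not stated. The depth of the libraries is unknown, and levels of different genes are not compared. Lrp1, the targeted gene, had a signal of 65.5 ± 13.3 in WT and of 4.41 ± 1.65 in LRP1 eKO libraries (SD, n = 4 each), with every LRP1 eKO library below every WT library. Of the endothelial markers, Pecam1 ranged from 1.53 to 2.5 in WT and from 1.84 to 3.85 in LRP1 eKO libraries, and Cdh5 from 1.26 to 2.27 and from 2.21 to 4.99. The mesenchymal genes Col1a1 (326 to 500) and Dcn (441 to 581) were also present in all 8 libraries. The name liver EC follows the paper, and the share of endothelial cells in these libraries was not determined. The part of other cell types in the results was not tested. In bulk RNA, fewer cells of a type and less RNA per cell cannot be told apart.

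Promoter sequences are shown first, since several members are paralogs that lie in gene clusters. RefSeq promoters on GRCm38.p6, from 250 bases before to 50 bases after the start, were found for 9 of the 10 members, and none was used for Trim14. The ISRE core, GAAA and GAAA with any 2 bases between them, was searched on both strands. It was present in 6 of these 9 (Slfn5, Slfn8, Slfn9, Trim21, Trim30a and Trim34a) and in 3.44% of all 32851 promoters of this length. The GAS motif TTCNNNGAA and the FoxO core GTAAACA were each present in 0 of the 9 members, against 8.30% and 3.65% of all promoters. A match describes the letters and not a bound site, and the motifs were chosen with results of these data known. The stretches that hold the ISRE core are shown 5′ to 3′ on the strand of the gene, with the core in capitals, for Slfn8 and Slfn9 at chr11:83020811-83020910 and chr11:82991831-82991930, both on the minus strand and both covering the 100 bases before the start.
Slfn8: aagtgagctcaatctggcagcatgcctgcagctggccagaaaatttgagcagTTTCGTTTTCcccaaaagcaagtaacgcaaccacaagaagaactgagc
Slfn9: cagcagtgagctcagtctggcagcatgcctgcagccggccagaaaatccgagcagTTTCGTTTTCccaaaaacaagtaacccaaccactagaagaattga
The same 10 letters began at position -48 relative to the RefSeq start of Slfn8 and at -45 relative to that of Slfn9. RefSeq gives a further start for Slfn8, relative to which the same letters began at -136. In a global alignment, 208 of 259 columns (80.3%) were identical between the 250 bases before each start. Trim30a (chr7:104465194-104465293) and its paralog Trim30d (chr7:104507850-104507949), both on the minus strand, also held identical cores in the 100 bases before the start, and 89.0% of the aligned columns were identical. A further RefSeq promoter of Trim30a, inside the gene, held the same core letters from position 3 after its start.
Trim30a: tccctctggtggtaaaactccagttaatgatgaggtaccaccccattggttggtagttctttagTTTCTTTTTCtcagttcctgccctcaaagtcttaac
Trim30d: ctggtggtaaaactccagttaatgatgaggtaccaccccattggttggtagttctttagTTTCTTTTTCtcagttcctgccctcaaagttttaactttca
In Slfn5 (chr11:82951938-82951967, plus strand) the core began at position -155, next to a run of A, and in Trim21 (chr7:102565447-102565476, minus strand) and Trim34a (chr7:104244460-104244489, plus strand) it lay after the start. Trim21 held 2 overlapping matches.
Slfn5: cttcaaagtGAAAAAGAAAaaaaaaaaagc
Trim21: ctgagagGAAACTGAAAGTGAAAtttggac
Trim34a: tttggagTTTCAGTTTCttttctctgcagt
No match to these letters was found in the windows of Slfn2, Trim25 and Trim56.

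As a group, the 10 members were higher in LRP1 eKO libraries, and they were chosen with earlier results of these data known. Fold changes are differences of the mean log2(signal + 1), LRP1 eKO minus WT, which understate the change of genes with low signals. They were tested with limma over the 11391 genes that reached a signal of 1 in 4 or more libraries, and the Benjamini-Hochberg adjusted p is given as the false discovery rate (FDR). Of the 9 members that passed this filter, 8 were higher at a limma FDR below 0.05, as were 19.0% of all genes tested, and 4 were also changed at least 2-fold, as were 0.869% of all genes tested. Lower calls made up 22.2% of all genes tested and 0 of the 9 members, the mean of each member being higher in LRP1 eKO libraries. Slfn8 passed the filter through its LRP1 eKO libraries alone and so had to differ, and of the other 8 tested members 7 were higher, 3 of them at least 2-fold. Trim14 was below the filter and was fitted without it. Over all 10 members the median log2 fold change was 0.75, against -0.0095 over all genes tested. Every LRP1 eKO library lay above every WT library for 9 of the 10 members, the exception being Slfn9, and for 20.0% of all genes tested. The 9 include Slfn8, whose separation was fixed by the filter, and Trim14, which is not among the genes tested. Marker genes of liver cells moved with the genotype as well. The 8 hepatocyte markers summed to 62.2 to 90.3 in WT and to 20.6 to 28.2 in LRP1 eKO libraries, and all 4 tested were lower at least 2-fold, while 1 of 5 tested stellate cell markers and 1 of 1 tested erythroid marker were lower. Their part in the changes of the members was not tested. With no filter, 7 of the 10 members were higher at an adjusted p below 0.05, as were 8.07% of the 22520 genes.

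**Figure D1:**
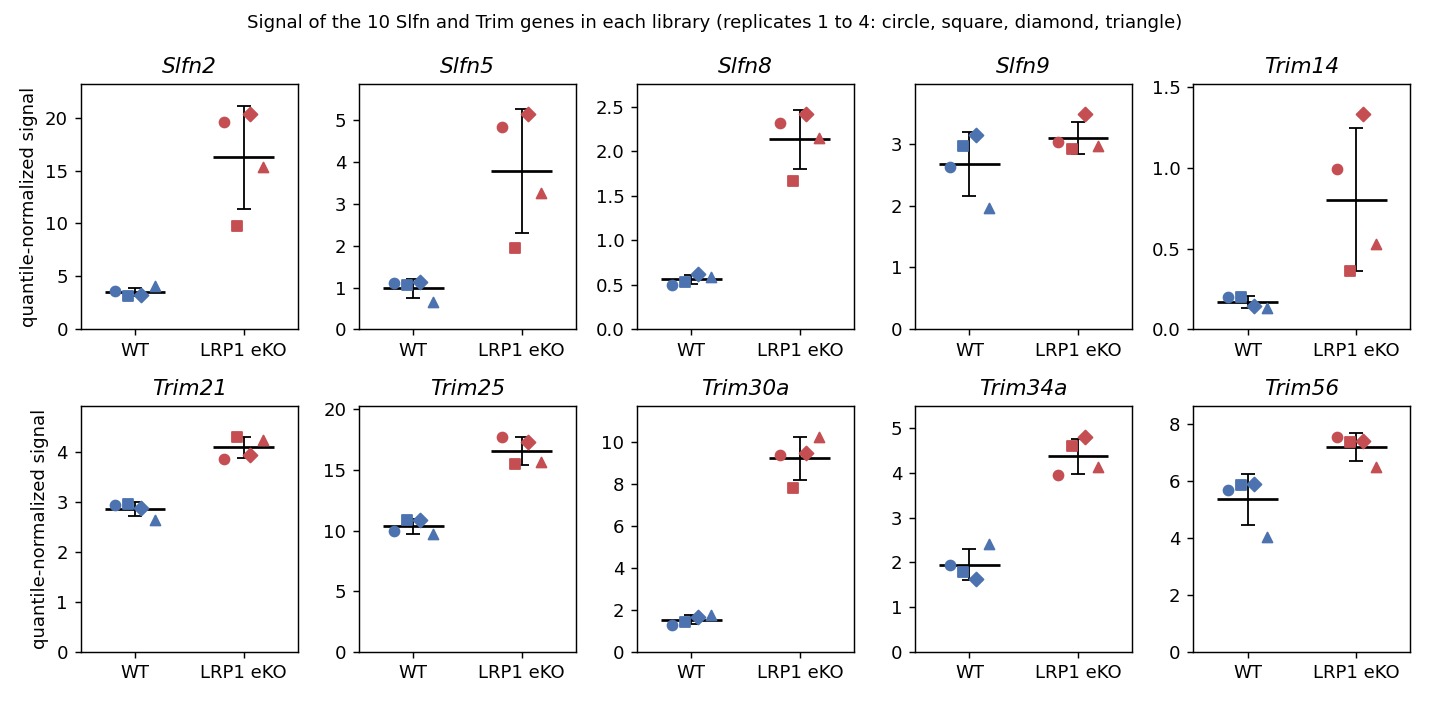
Quantile-normalized signal (vertical axes, each from 0) of the 10 members in the 4 WT and 4 LRP1 eKO libraries, with a bar at the mean and an error bar of 1 SD. For Slfn9 the genotypes overlap, and for the other 9 genes all LRP1 eKO points lie above all WT points, with LRP1 eKO replicate 2 (square) lowest of its group for Slfn2, Slfn5, Slfn8, Slfn9, Trim14, Trim25 and Trim30a.

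Of the 4 Slfn members, Slfn2 had the largest fold change, Slfn5 and Slfn8 were also higher, and Slfn9 did not pass the threshold. Slfn2, a short schlafen that keeps T cells quiescent, had WT signals of 3.61, 3.19, 3.23 and 4.06 and LRP1 eKO signals of 19.6, 9.76, 20.3 and 15.4, in the order of replicates 1 to 4 that is kept for all genes. The LRP1 eKO libraries were all higher, but LRP1 eKO replicate 2 reached less than the other three. The log2 fold change of Slfn2 was 1.89 (SE 0.19, limma FDR = 6.1e-05), rank 23 among the increases of all genes tested. Slfn5, a long schlafen found in the nucleus, had signals of 1.10, 1.06, 1.13 and 0.646 in WT libraries and of 4.83, 1.94, 5.15 and 3.27 in LRP1 eKO libraries. Its log2 fold change was 1.22 (SE 0.21, limma FDR = 0.0015), and its LRP1 eKO values were the most widely spread of the called Slfn genes relative to their mean, at 3.80 ± 1.49 (SD, n = 4). The Slfn5 locus is overlapped on the opposite strand by Slfn5os and that of Slfn2 by Gm20234, and whether reads were counted by strand is not given in the sources used here.

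Slfn8 and Slfn9, neighboring long schlafens on the minus strand of chromosome 11, responded differently. Slfn8 had WT signals of 0.50, 0.532, 0.617 and 0.593 and LRP1 eKO signals of 2.32, 1.67, 2.42 and 2.15, a log2 fold change of 1.00 (SE 0.085, limma FDR = 2.0e-05) and a ratio of means of 3.81. Its fold change is at the edge of the 2-fold threshold and ranged from 0.96 to 1.08 with 1 library left out. Slfn9 had WT signals of 2.62, 2.96, 3.13 and 1.96 and LRP1 eKO signals of 3.02, 2.91, 3.47 and 2.96. These ranges overlap, and the log2 fold change of 0.17 (SE 0.10) did not pass the threshold (limma FDR = 0.22). The difference between the paralogs was tested within libraries as log2(signal + 1) of Slfn8 minus that of Slfn9, which went from -1.22 ± 0.22 in WT to -0.39 ± 0.12 in LRP1 eKO libraries (SD, n = 4 each). This value did not overlap between genotypes (exact two-sided permutation test, p = 0.029, which is the lowest value possible with 4 libraries of each genotype, and 0.038 adjusted over the 4 paralog pairs compared). Slfn8 passed the filter through its LRP1 eKO libraries alone, so its own separation was fixed. The test of the difference includes that separation and gives no independent support. The identical ISRE cores printed above were thus carried by 1 gene that was called and 1 that was not. Of the 50-base stretches of the coding transcripts, 14.6% of those of Slfn8 and 11.4% of those of Slfn9 also occur in other genes, chiefly the pseudogene Slfn10-ps, and how reads from them were divided is not stated with the table.

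Of the TRIM genes of nucleic acid sensing, Trim25 and Trim56 were higher in LRP1 eKO libraries, and Trim14 did not pass the threshold. Trim25, a ligase for ubiquitin and ISG15, had signals of 9.94, 10.9, 10.9 and 9.69 in WT and of 17.7, 15.5, 17.3 and 15.6 in LRP1 eKO libraries, with little spread within either genotype. The log2 fold change was 0.63 (SE 0.063, limma FDR = 6.4e-05). Trim56, which promotes signaling by cytosolic DNA and RNA sensors, had signals of 5.67, 5.86, 5.89 and 4.03 in WT and of 7.56, 7.38, 7.39 and 6.48 in LRP1 eKO libraries. Replicate 4 was the lowest of each genotype for Trim56. Its log2 fold change of 0.38 (SE 0.10, limma FDR = 0.016) is the smallest of the called members, and the adjusted p was 0.065 with no filter.

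Trim14, which lacks a RING domain and docks on MAVS, had WT signals of 0.203, 0.203, 0.142 and 0.134 and LRP1 eKO signals of 0.996, 0.360, 1.33 and 0.527. The groups did not overlap and the ratio of means was 4.72, but the LRP1 eKO libraries varied from 0.360 to 1.33. Fitted without the filter, the log2 fold change was 0.59 (SE 0.17) and did not pass the threshold (limma FDR = 0.056), while without LRP1 eKO replicate 2 it was 0.72 (limma FDR = 0.024). With any other single library left out, Trim14 did not pass the threshold (limma FDR from 0.074 to 0.132). Trim14 overlaps Nans on the opposite strand over 9852 bases, and Nans had a log2 fold change of 0.047 (limma FDR = 0.50). Trim21, the cytosolic antibody receptor, had WT signals of 2.93, 2.95, 2.88 and 2.63 and LRP1 eKO signals of 3.86, 4.30, 3.94 and 4.24. This was a small and even rise of 0.40 on the log2 scale (SE 0.059, limma FDR = 6.3e-04), and LRP1 eKO replicate 2 was its highest library.

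Trim30a had the largest fold change of all members, and Trim34a of the same cluster was also higher. Trim30a, a TRIM protein that dampens NF-kB signaling in macrophages, had signals of 1.29, 1.40, 1.67 and 1.77 in WT and of 9.39, 7.80, 9.48 and 10.2 in LRP1 eKO libraries. The lowest LRP1 eKO library was thus far above the highest WT library. The log2 fold change was 2.01 (SE 0.091, limma FDR = 3.9e-07) and the ratio of means was 6.02, rank 20 among the increases of all genes tested. Trim34a, a relative with a RING and a SPRY domain, had signals of 1.95, 1.78, 1.62 and 2.42 in WT and of 3.96, 4.59, 4.81 and 4.14 in LRP1 eKO libraries, a log2 fold change of 0.87 (SE 0.091, limma FDR = 7.8e-05). For both genes WT replicate 4 was the highest WT library, whereas for 6 of the other members it was the lowest.

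**Figure D2:**
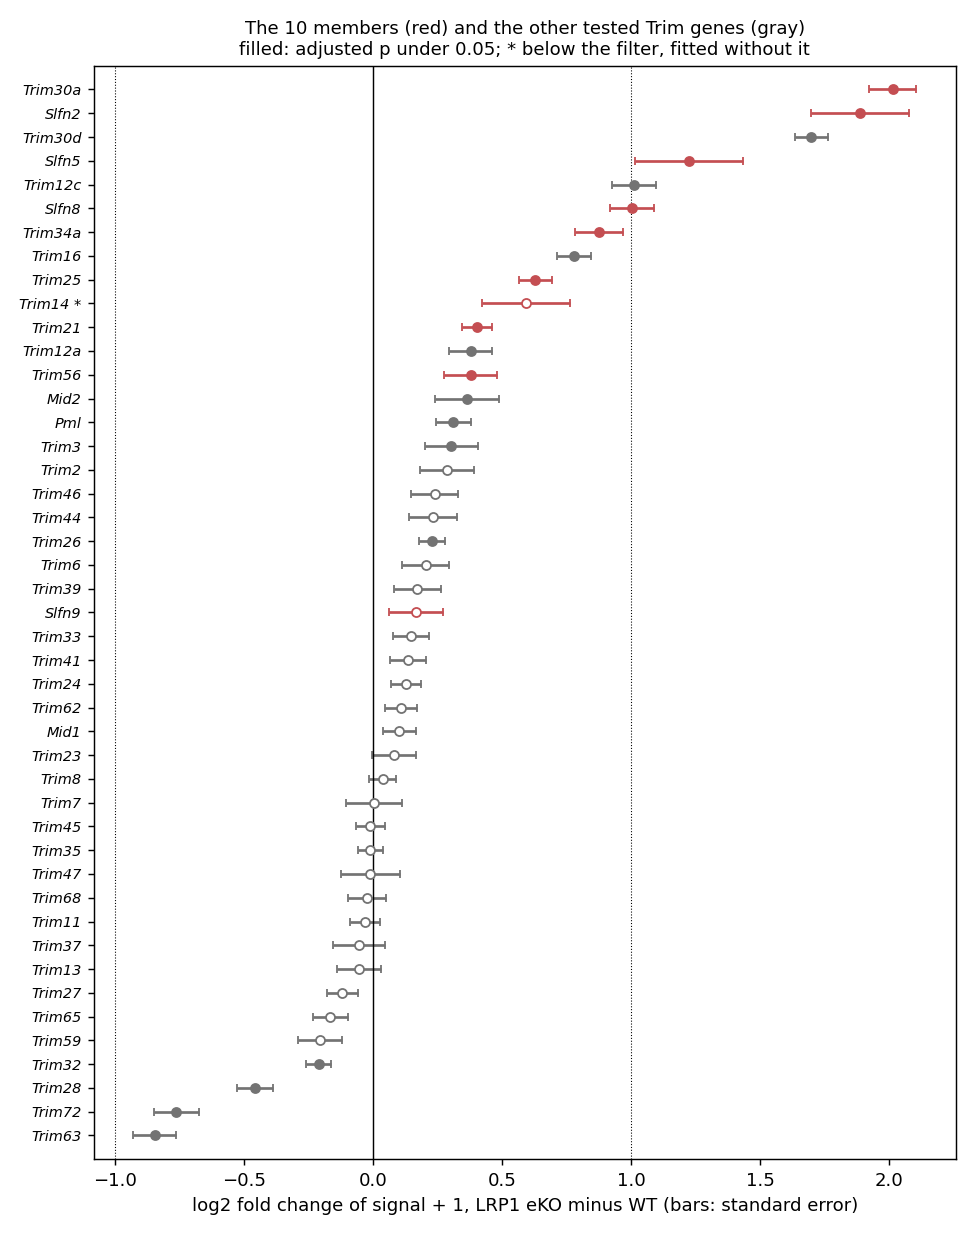
Log2 fold change of signal + 1 (horizontal axis, LRP1 eKO minus WT) with its SE for the 10 members in red and the 35 other tested Trim genes, Mid1, Mid2 and Pml included, in gray, filled where the limma FDR was below 0.05. Trim30a, Slfn2, Slfn5 and Slfn8 lie past the dotted 2-fold line together with the gray Trim30d and Trim12c, and Trim63 and Trim72 lie at the lower end.

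The Slfn genes lie in 1 cluster on chromosome 11 of GRCm38, and Trim30a and Trim34a in another on chromosome 7, so that their neighbors could be compared in the GENCODE M21 annotation. The Slfn cluster extends from 82951349 to 83286726. It holds Slfn5 (82951349 to 82964840, plus strand), Slfn9 (82978390 to 82991830, minus strand), Slfn8 (83002158 to 83020810, minus strand) and Slfn2 (83065112 to 83070678, plus strand). The other Slfn genes of the cluster were all below the filter and were fitted without it. Slfn10-ps, a pseudogene beside Slfn8, had signals of 0.258, 0.291, 0.449 and 0.131 in WT and of 1.02, 0.716, 1.05 and 0.765 in LRP1 eKO libraries, a log2 fold change of 0.56 (limma FDR = 0.0083). Slfn3 rose by 0.20 on the log2 scale (limma FDR = 0.0046). Slfn4, a schlafen of myeloid cells, had LRP1 eKO signals of 0.258, 0.0335, 0.340 and 0.253 and WT signals of at most 0.0267 (limma FDR = 0.066). Slfn1 was listed at 0 in the 4 WT libraries and reached at most 0.150 in LRP1 eKO libraries (limma FDR = 0.12). Slfnl1, on another chromosome, had an adjusted p of 1.0 in the same limma fit, and Slfn14 was not analysed here. Unc45b, a chaperone of muscle myosin encoded just before Slfn5, was lower (1.64 ± 0.29 to 1.09 ± 0.24, SD, n = 4 each, limma FDR = 0.025).

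The cluster on chromosome 7 extends from 104218793 to 104507849 and holds Trim34a (104244457 to 104262234, plus strand) and Trim30a (104409025 to 104465193, minus strand). Trim30d, next to Trim30a, had signals of 2.92, 2.52, 2.44 and 2.29 in WT and of 10.7, 10.2, 10.7 and 10.3 in LRP1 eKO libraries, a log2 fold change of 1.70 (SE 0.064, limma FDR = 1.2e-07). Trim30b and Trim30c, the other paralogs, were at most 0.0683 in any library and did not pass the threshold (limma FDR from 0.31 to 0.66 over the 3 table entries with these names). The difference between Trim30a and Trim30d overlapped between genotypes (exact two-sided permutation test, p = 0.057 before and after adjustment over the 4 pairs). Of the 50-base stretches of Trim30a, 6.53% also occur in Trim30d.

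Trim12c and Trim12a, a further pair in this cluster, differed in size of change. From a WT mean of 5.21 ± 0.71, Trim12c reached 11.5 ± 0.69 (SD over 4 libraries of each genotype), and it rose by 1.01 on the log2 scale (limma FDR = 1.9e-05). Trim12a had means of 6.89 ± 0.66 and 9.24 ± 0.90 and rose by 0.38 (limma FDR = 0.0055). Their difference within libraries did not overlap between genotypes (exact two-sided permutation test, p = 0.029, adjusted 0.038). Of the 50-base stretches, 29.4% of those of Trim12c and 20.8% of those of Trim12a also occur in other genes, chiefly Trim5, and the division of such reads is uncertain. Both windows hold the core TTTCTGTTTC, in Trim12c before the start (chr7:104353350-104353409, minus strand) and in Trim12a after it (chr7:104315463-104315492, minus strand), as these stretches show.
Trim12c: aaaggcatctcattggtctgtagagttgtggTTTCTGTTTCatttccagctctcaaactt
Trim12a: gttgtggTTTCTGTTTCatttccagagctc
Trim34b had WT signals of 0.306, 0.377, 0.232 and 0.287 and LRP1 eKO signals of 0.458, 0.541, 0.640 and 0.329, which overlap, and did not pass the threshold (limma FDR = 0.10). The difference between Trim34a and Trim34b was larger in LRP1 eKO libraries by 0.68 on the log2(signal + 1) scale (exact two-sided permutation test, p = 0.029, adjusted 0.038). Without the pseudocount it was 0.49 (exact two-sided permutation test, p = 0.057), and 39.8% of the stretches of Trim34a also occur in Trim34b, so that the division between them is uncertain. Trim5 (limma FDR = 0.069, fitted without the filter) and Trim6 (limma FDR = 0.099) did not pass the threshold, and the olfactory receptor genes Olfr649 and Olfr651 at the edges were listed at 0 in all libraries.

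**Figure D3:**
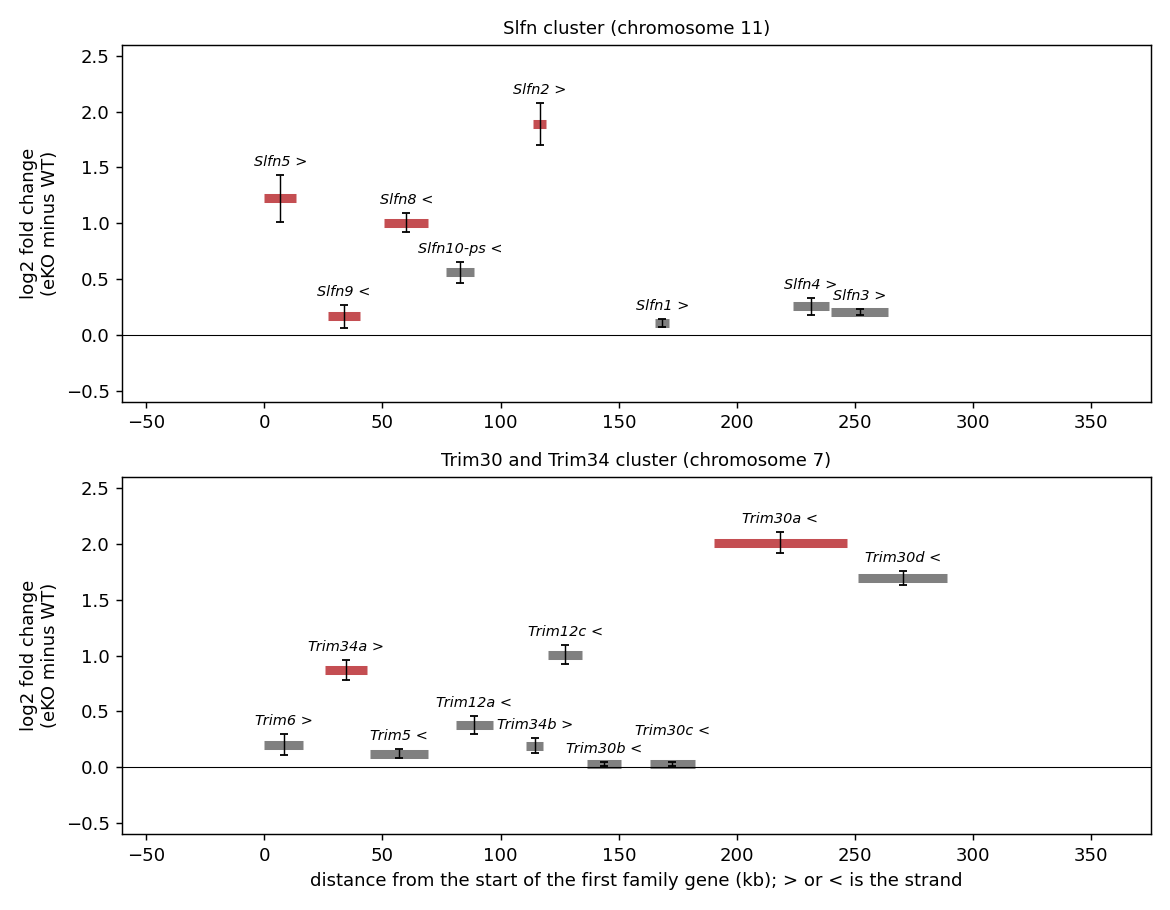
Log2 fold change of signal + 1 (vertical axis, error bars of 1 SE) of each gene against its distance in kb from the start of the cluster, for the Slfn cluster and the Trim30 and Trim34 cluster, with the members in red and other genes of the families in gray. Genes with changes above 1 on the log2 scale lie beside genes near 0 in both clusters. Genes with signals close to 0, such as Trim30b and Trim30c, plot near 0 on this scale whatever their ratio.

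LRP1 eKO replicate 2 divided the members. Relative to the WT mean, its change in log2(signal + 1) was 30.2% of the mean change of the other three LRP1 eKO libraries for Trim14, 39.9% for Slfn5, 54.5% for Slfn9, 59.9% for Slfn2 and 71.8% for Slfn8. For the TRIM genes other than Trim14 it was 82.2% for Trim25, 86.5% for Trim30a, 109% for Trim34a, 112% for Trim56 and 121% for Trim21. Among the paralogs it was 6.00% for Slfn4 and 97.0% for Trim30d. Lrp1 was also lowest in this library, at 2.16 against 4.32 to 6.01. The 14 macrophage and Kupffer cell markers in the table were all lowest of the LRP1 eKO group in this library, Timd4 in a tie at 0. Their summed signal was 53.3 in it, 397 to 740 in the other LRP1 eKO libraries and 114 to 224 in WT libraries. Of the defining Kupffer cell markers, Clec4f was listed at 0 in every WT library. Clec4f had a signal of 0.124 in LRP1 eKO replicate 2 and of 0.826, 0.537 and 0.427 in replicates 1, 3 and 4. Vsig4 (0.0381), Cd5l (0.274) and Marco (0.0861) instead lay below every WT library in LRP1 eKO replicate 2. The lowest WT signals of these genes were 0.422, 2.05 and 0.619. Timd4 was listed at 0 except in LRP1 eKO replicate 3 (0.0237). Of the 10 tested markers of this list 1 was higher at a limma FDR below 0.05, with a median log2 fold change of 1.09.

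In LRP1 eKO replicate 2, 9 of the 10 members were above every WT library, the exception being Slfn9. The share of all genes above WT in this library alone was not counted, so the count has no background. For Slfn8 the outcome was fixed by the filter, and Trim14 was below the filter. Without this library the log2 fold change was 2.10 for Slfn2, 1.44 for Slfn5, 1.08 for Slfn8 and 2.08 for Trim30a. In this setting 7 members were called, since Slfn8 no longer passed the filter. Leaving out any other single LRP1 eKO library also gave 7. The liver sinusoidal endothelial markers summed to 8.38 in LRP1 eKO replicate 2, against 20.0 to 33.0 in the other LRP1 eKO and 7.84 to 11.7 in WT libraries, and 1 of the 4 tested was higher. The pan-endothelial markers summed to 39.2 in it, against 43.9 to 55.4 and 37.2 to 39.1, and 2 of the 7 tested were higher. Their part in the spread of the members was not tested.

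**Figure D4:**
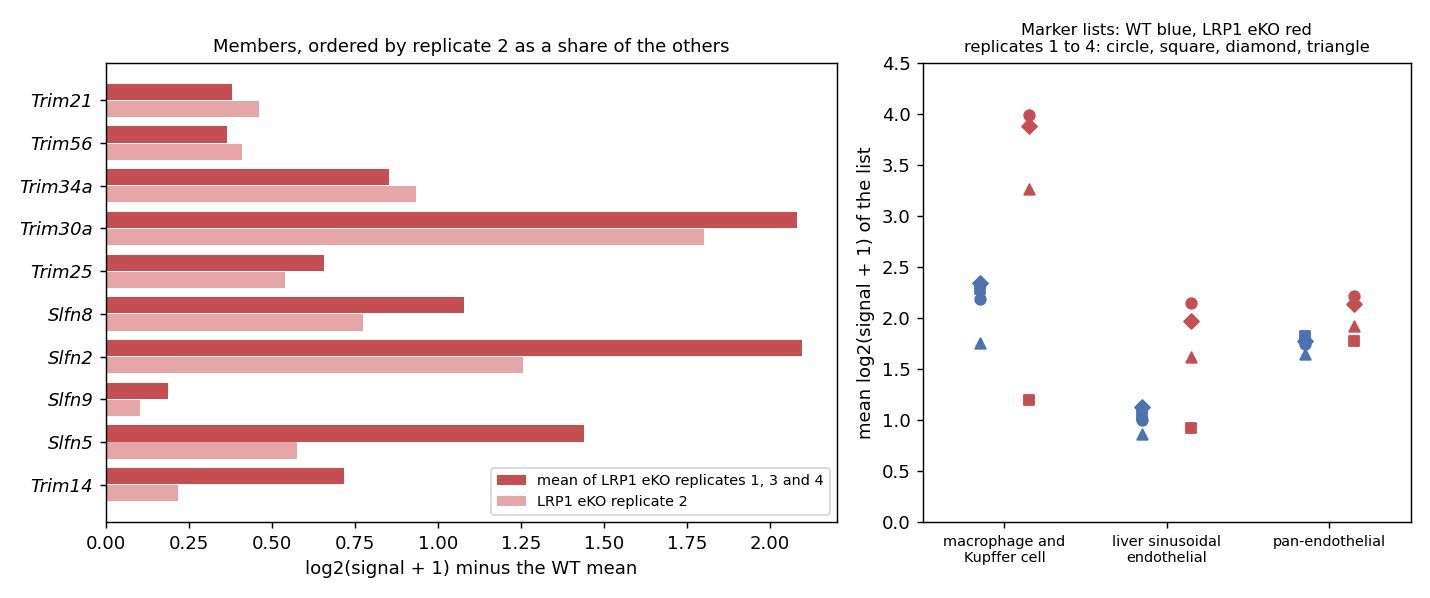
Left, change in log2(signal + 1) from the WT mean (bars from 0) of each member in LRP1 eKO replicate 2 (light) and averaged over LRP1 eKO replicates 1, 3 and 4 (dark). Right, mean log2(signal + 1) of 3 marker lists in each library, where LRP1 eKO replicate 2 (red square) is the lowest LRP1 eKO library in every list and, for the macrophage and Kupffer cell list, lies below the 4 WT libraries.

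The defining markers of most other immune cells were low or listed at 0. The 11 T and NK cell markers summed to between 0.238 and 0.739 in WT and between 0.344 and 0.599 in LRP1 eKO libraries, with Cd3g, Cd2, Cd8a, Ncr1 and Gzma listed at 0 in all 8. The dendritic cell markers Siglech, Cd209a and Flt3, the neutrophil markers Ly6g and Retnlg and the B cell marker Cd79b were likewise listed at 0 in all libraries. The 9 dendritic cell markers summed to 93.6 to 105 in WT and 258 to 294 in LRP1 eKO libraries, and LRP1 eKO replicate 2 had the highest sum. Nearly all of it was Bst2, which is itself induced by interferon (86.8 to 100.2 in WT and 248 to 287 in LRP1 eKO libraries), the median log2 fold change of the list was 0.0089, and Bst2 and Tcf4 were the 2 tested genes, both higher. The neutrophil list ranged from 0.992 to 2.01 in WT and from 1.73 to 3.99 in LRP1 eKO libraries, and the B cell list from 0.838 to 1.32 and from 1.08 to 2.38. S100a8, the 1 tested neutrophil marker, rose from a mean of 1.22 to 2.56 (limma FDR = 0.041). The 1 tested B cell entry, of Ebf1, had means of 1.04 and 1.54 and did not pass the threshold (limma FDR = 0.11). The part of these cells in the results was not tested.

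Other TRIM genes moved in both directions. Of the 71 other Slfn and Trim entries in the table, 35 were tested, all of them Trim genes or the TRIM proteins Mid1, Mid2 and Pml. Of these, 8 were higher (22.9%, against 19.0% of all genes tested), 4 were lower, where the share over all genes tested was 22.2%, and 23 did not pass the threshold, so that the share of higher calls was near the background. Their median log2 fold change was 0.10. The other Slfn genes were all below the filter. The 2 that rose at least 2-fold were Trim30d and Trim12c, and the next was Trim16, which went from 4.91 ± 0.28 to 9.13 ± 0.71 (SD, n = 4 each, limma FDR = 2.0e-05). Trim12a, Pml (0.31), Trim26 (0.23), Mid2 (0.36) and Trim3 (0.30) were higher with smaller log2 fold changes. Among those lower, Trim63, a ligase of muscle atrophy, went from 39.6 ± 3.58 to 21.6 ± 2.19, and Trim72, a membrane repair protein of muscle, from 1.84 ± 0.27 to 0.674 ± 0.13 (SD, n = 4 each, limma FDR = 5.2e-05 and 1.4e-04). Trim72 passed the filter through its WT libraries alone and so had to differ, and its call gives no independent support. Trim28, a corepressor of retroelements, and Trim32 were also lower, by 0.46 and 0.21 on the log2 scale.

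Genes that work with the members were examined from lists of 32 genes, of which 30 were tested. Of these, 15 (50%) were higher, 1 was lower and 14 did not pass the threshold. Over all genes tested, 19.0% were higher and 22.2% were lower. Of the RNA and DNA sensing partners, Ddx58, which encodes RIG-I, rose from 12.7 ± 0.79 to 28.4 ± 1.11 (SD, n = 4 each, limma FDR = 6.9e-07). The sensors Ifih1 and Dhx58 rose by 1.33 and 1.25 on the log2 scale, and Zc3hav1, the antiviral cofactor of Trim25, by 0.70. Irf7, which amplifies interferon production, rose by 2.55, and Ikbke by 0.33. Mavs, the partner of Trim14, had a log2 fold change of 0.016 (limma FDR = 0.84), and Usp14 of 0.098 (limma FDR = 0.27). Rnf135, another ligase for RIG-I, did not pass the threshold at -0.15 (limma FDR = 0.15), and nor did Irf3 at -0.15 (limma FDR = 0.054). The gene that was lower is Tmem173, which encodes the partner of Trim56, STING, with signals of 23.5, 24.5, 23.2 and 23.4 in WT and of 19.7, 18.4, 19.3 and 17.5 in LRP1 eKO libraries, a log2 fold change of -0.32 (limma FDR = 8.1e-04).

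Of the interferon receptor and ISGF3 list, Stat2 rose by 1.25 and Irf9 by 0.99 on the log2 scale, while Ifnar1 (0.030) and Ifnar2 (-0.21) did not pass the threshold. Usp18, a brake on the receptor, rose from 1.62 ± 0.28 to 25.2 ± 1.15 (SD, n = 4 each). All 4 genes of ISG15 conjugation were higher, as were 19.0% of all genes tested. The log2 fold changes were 3.55 for Isg15, 1.28 for Ube2l6, 0.96 for Herc6 and 0.68 for Uba7. In contrast, 0 of 4 partners of Trim21 in antibody disposal (Vcp, Ube2n, Ube2v2 and Ube2w) passed the threshold at a limma FDR below 0.05, and 0 had an unadjusted p below 0.05 by limma or by the exact permutation test.

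The genes outside the members whose profile over the 8 libraries lay closest to the median profile of the members were Col12a1, Cyr61, Vldlr, Sh3kbp1 and Fbln2. The root mean square distance was between 0.081 and 0.092 on the log2 scale over 8 libraries, each gene being taken relative to its WT mean. Their log2 fold changes ranged from 0.67 for Col12a1 to 0.81 for Sh3kbp1, and in each of the 5 every LRP1 eKO library lay above every WT library. Both follow from picking genes close to the median profile and are not a separate result.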

How the data were processed

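The authors deposited 1 table of quantile-normalized signal for 22520 genes, with 1 column per library, and all 8 columns were used. The submitters' processing notes name TopHat2 and Cufflinks with mm10, whereas the paper's methods name STAR and featureCounts. Neither describes the quantile normalization, which removes global shifts between genotypes, so depth and counting error are unknown. The thresholds of the paper's methods, an FDR below 0.05 and a 2-fold change, were kept. As the values are not counts, limma 3.58.1 in R 4.3.3 was run on log2(signal + 1) with a trend in the variance and no covariate besides genotype. Single values were tested with an exact two-sided permutation test. The fit was tested on simulated data.

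The members, lists and motifs were chosen with earlier results of these data known. Named genes were the members, all other Slfn genes, paralogs and cluster neighbors, the 4 other Trim genes with the smallest adjusted p in each direction, partners past both thresholds and the nearest profiles. Other genes named were chosen after their values were seen. Values of some other genes under this rule are not reported here. Positions came from GENCODE M21 and promoters from RefSeq, both on GRCm38, the build also called mm10. Paired promoters were aligned with Biopython 1.88 (match 2, mismatch -1, gap opening -3, gap extension -1). The list symbols Slfn14 and Trac could not be matched, and Trim80 was matched by gene ID. Alternatives were pseudocounts of 0.1 and 5, other filters, moderation, library weights, centring, a replicate block and leaving out each library. Figures were drawn with matplotlib 3.10.9.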

Additional observations from a re-analysis of the deposited data

Results flagged for a closer look

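Dixon's test for a single distant library was run on 56 groups of 4 libraries, for the members, other genes and marker lists, and 4 passed its critical value. About 2.8 would pass by chance. The distance between that library and its closest neighbor, divided by the whole spread of the genotype, was 0.869 for Slfn5 and 0.883 for Trim56, both lowest in WT replicate 4, and 0.838 for Trim56, lowest in LRP1 eKO replicate 4. It was 0.97 for the erythroid markers, highest in WT replicate 2, where Hba-a1 had a signal of 8.51 and was listed at 0 in every other library. Without WT replicate 4 and LRP1 eKO replicate 2, the log2 fold change of Slfn5 was 1.35 and that of Trim56 was 0.26.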

How the results depend on the processing

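No member changed sign under any alternative with a fit, and 8 of the 10 kept their side of the limma threshold in all. Members below the signal filter of an alternative were fitted without it, as was Slfn8 with 1 LRP1 eKO library left out. Trim14 passed it with a pseudocount of 0.1 (adjusted p = 0.027), array weights (0.025), centring (0.033) and without LRP1 eKO replicate 2 (0.024), and Trim56 did not pass it with no filter (adjusted p = 0.065). The median log2 fold change of the members was 1.38 with a pseudocount of 0.1 and 0.40 with a pseudocount of 5. With a minimum mean signal of 5, 4 members remained to be tested and all 4 were called, 2 of them at least 2-fold, and with a pseudocount of 5 again 2 were past 2-fold. Over all genes, 149 were higher by 2-fold with a pseudocount of 0.1, 40 with 5 and 63 with a minimum mean signal of 5, and 166 and 26 were lower with pseudocounts of 0.1 and 5. Without both WT replicate 4 and LRP1 eKO replicate 2, an alternative chosen after seeing the data, 152 were higher. With 1 library left out, 81 to 163 were higher by 2-fold, the most without LRP1 eKO replicate 2. Of the other Slfn and Trim genes, 1 was higher by 2-fold with a pseudocount of 5, array weights or without those 2 libraries, and from 1 to 2 with 1 library left out, as Trim12c lay at the threshold. With no filter 7 of them were lower, and with a pseudocount of 0.1, 1 was lower by 2-fold. Of the partners, 4 were higher by 2-fold with a pseudocount of 5, 3 were lower with array weights, and from 1 to 2 were lower with 1 library left out. The cause of these differences was not tested. With the replicate number as a block, 8 members were higher and 4 past 2-fold, and no call of a member changed. The deviations of libraries with the same number correlated at -0.086, -0.13, 0.18 and 0.038. Those of libraries with different numbers ranged from -0.264 to 0.212, so that these values cannot tell whether libraries were paired. Depth is unknown and limits the low signals of Trim14, Slfn8 and the untested Slfn genes.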
